A study of Mus musculus with 816 samples.

Results

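Adding ATP to lipopolysaccharide (LPS) for 4 h was examined in cultured primary mouse microglia. The comparison set 6 cultures given LPS with ATP against 7 cultures given LPS alone, gene by gene, and these 13 cultures were chosen by their treatment and time labels from 784 cultures and 816 samples in all. The cells were commercial neonatal mouse microglia grown in coated multi-well plates, and a stimulus was added with fresh medium some days after plating. All 13 cultures received the higher LPS dose, labelled LPS_hi, of 0.0001 ug/ul. ATP alone was labelled 1000 uM, and the labels of the LPS + ATP cultures give the LPS dose but not the ATP concentration. The 13 cultures lay on 2 culture plates, and the column header lists 2 source IDs for them. Nothing in the labels says that cultures of a plate came from separate animals, so p-values measure the spread between wells.

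ATP is a messenger outside the cell as well as the fuel inside it. Damaged cells and active synapses release it, microglia sense it through ion channels of the P2X family and G protein-coupled receptors of the P2Y family, and surface enzymes degrade it to adenosine, which acts on its own receptors. LPS, a component of the bacterial outer membrane, binds Toll-like receptor 4 and drives inflammatory genes through NF-kB and, by way of secreted interferon beta, interferon-stimulated genes. In microglia and macrophages primed by LPS, ATP is best known as the trigger that opens the P2X7 channel and lets the NLRP3 inflammasome process interleukin-1 beta, a step that acts on protein and is not read by mRNA levels.

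Libraries held 1.191 to 17.246 M (1e6) mapped reads (median 4.041 M) and 6584 to 8438 genes above 5 CPM, where CPM is the reads of a gene per 1e6 mapped reads. An LPS + ATP culture (replicate 2, 1.191 M) and an LPS culture (replicate 3, 1.202 M) were the shallowest. On plate 1 there were 3 LPS and 2 LPS + ATP cultures, and on plate 2 there were 4 of each. The 4 LPS + ATP cultures of plate 2 all sat in edge wells, against 2 of the 7 LPS cultures over both plates, and the LPS cultures came from a single library pool on each plate while the LPS + ATP cultures came from all 4 pools. Plate was therefore a term of every main fit, and pool and well position were terms of alternative fits. Among microglial markers, Csf1r had a median of 2082 CPM with ATP and 1784 CPM without, and of 9 of 11 markers high enough to test, limma called 0 (1 at an unadjusted p under 0.05). The defining markers Tmem119 and P2ry12 were too low to test, with medians of at most 3.27 CPM in either group. Marker lists for neurons, astrocytes, neutrophils and lymphocytes had no member high enough to test, and their summed levels reached at most 22.6 CPM in any of the 13 cultures. Fibroblast and pericyte markers summed to 29.7 to 396 CPM with ATP and 34.3 to 695 CPM without. Perivascular macrophage markers summed to 182 to 341 CPM with ATP and 200 to 383 CPM without. For endothelial markers the sums were 23.3 to 192 and 15.3 to 60.3 CPM, and for oligodendrocyte lineage markers 33.1 to 138 and 10 to 87.6 CPM. Transcripts of the mitochondrial genome took 0.991 to 3.65% of CPM with ATP (median 2.10%) and 0.568 to 1.98% without (median 1.08%), and 9 of their 15 genes tested rose while none fell. The part of these transcripts in the other results was not tested.

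Of 8668 genes tested, 597 (6.89%) changed when ATP was added to LPS, 331 of them (3.82%) upward and 266 (3.07%) downward. A change was called in a limma fit of log2(CPM + 1) with plate as a term, at a Benjamini-Hochberg adjusted p under 0.05 over all genes, and the words rose and fell are used below for such calls only. The change was at least 2-fold for 280 of the genes that rose and 185 of those that fell, and 4-fold for 129 and 57. The median log2 fold change over all genes tested was 0.12, and fold changes are on the log2(CPM + 1) scale, where a low gene's change comes out too small. In bulk cultures, fewer cells with a transcript and less transcript per cell cannot be told apart. The direction was the same on both plates for 595 of the 597 genes. The count was 271 with no plate term, 241 with the library pool in place of plate, 521 of 10089 (5.16%; 2.65% higher and 2.52% lower) when all 4 LPS groups at 4 h shared a fit with library pool, 403 (4.65%; 2.35% higher and 2.30% lower) with well position added to plate, and 402 without the 2 cultures under 2 M reads.

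**Figure D1:**
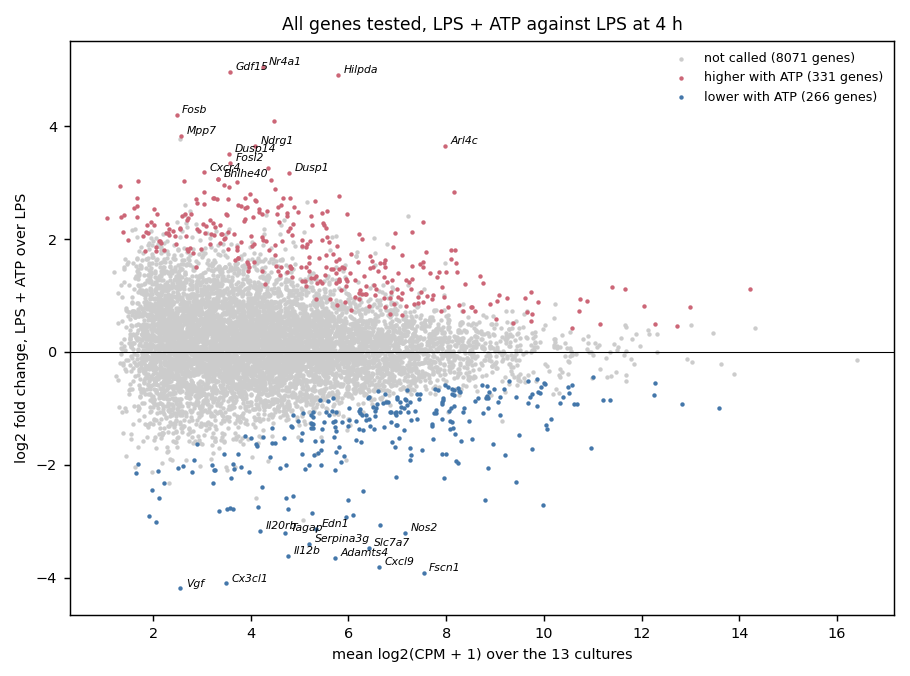
Log2 fold change of LPS + ATP over LPS against the mean log2(CPM + 1) for the 8668 genes tested, with the 331 higher genes in red, the 266 lower genes in blue, and the 12 largest rises and 12 largest falls of the naming rule labelled (predicted and clone-named genes left out). The largest rises lie at low to middle levels, while Arl4c and Hilpda among the rises and Fscn1, Nos2 and Cxcl9 among the falls are also well expressed.

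The 12 largest rises and the 12 largest falls described next leave out predicted and clone-named genes. They were required to reach 10 CPM in the higher group and to keep their sign on both plates. Nr4a1, an orphan nuclear receptor of the immediate early class (GRCm38 chromosome 15, 101253902 to 101274795), was at 18.3 to 596 CPM with ATP (median 207) and at 0 to 53.4 CPM without (median 0.702). Of the 6 LPS + ATP cultures 4 lay above every LPS culture, and 1 of the 7 LPS cultures exceeded the lowest LPS + ATP culture. Its log2 fold change was 5.05 (SE 0.78, adjusted p = 0.00078). Hilpda, a protein that blocks fat breakdown at lipid droplets (chromosome 6, 29272488 to 29275449), was at 238 to 495 CPM with ATP (median 337) and at 4.83 to 16.8 CPM without (median 15.1). The groups lay far apart, with every LPS + ATP culture above every LPS culture, and the log2 fold change was 4.90 (SE 0.32, adjusted p = 8.6e-08), a 29.8-fold rise, with differences of 4.91 on plate 1 and 4.89 on plate 2. Gdf15, a stress-induced hormone of the TGF-beta family, was at 51.3 to 127 CPM with ATP (median 59.7) and at 0 to 21.1 CPM without (median 0.345), a log2 fold change of 4.96 (SE 0.61, adjusted p = 8.4e-05). Arl4c, a small GTPase of the Arf family, was the most abundant of the 12 largest rises, at 860 to 1142 CPM with ATP (median 966) and 29.6 to 193 CPM without (median 83.0), with a log2 fold change of 3.65 (SE 0.33, adjusted p = 4.8e-06). The rest of the 12 were Fosb, Mpp7, Ndrg1, Dusp14, Fosl2, Cxcr4, Dusp1 and Bhlhe40, with log2 fold changes from 4.20 down to 3.07. In 10 of the 12 the groups did not overlap, which held for 1.18% of all genes tested in this direction.

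Among the 12 largest falls was Cxcl9, an interferon-gamma-inducible chemokine that attracts T cells (chromosome 5, 92321331 to 92328079). It was at 11.9 to 48.8 CPM with ATP (median 23.2) and at 141 to 562 CPM without (median 366). The groups did not overlap, and the log2 fold change was -3.81 (SE 0.35, adjusted p = 4.8e-06). Fscn1, which bundles actin in the protrusions of activated myeloid cells (chromosome 5, 142960355 to 142973189), was at 12.3 to 219 CPM with ATP (median 33.4) and 328 to 1029 CPM without (median 799), a log2 fold change of -3.91 (SE 0.45, adjusted p = 4.3e-05). Its difference was smaller on plate 1 (-2.30) than on plate 2 (-4.88). Nos2, the inducible nitric oxide synthase (chromosome 11, 78920787 to 78960226), was at 25.8 to 83.1 CPM with ATP (median 41.2) and 158 to 796 CPM without (median 429), with a log2 fold change of -3.21 (SE 0.35, adjusted p = 2.8e-05). Slc7a7, an exporter of cationic amino acids such as arginine, was at 17.2 to 42.1 CPM with ATP (median 20.4) and 179 to 479 CPM without (median 233), a log2 fold change of -3.47 (SE 0.25, adjusted p = 3.1e-07). The others were Vgf, Cx3cl1, Adamts4, Il12b, Serpina3g, Tagap, Il20rb and Edn1, with log2 fold changes between -4.19 and -3.14, and in 11 of the 12 the groups did not overlap, against 1.15% of all genes tested in this direction. All 12 largest rises and all 12 largest falls were also called in the fit of 4 LPS groups with library pool and in the fit with well position.

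**Figure D2:**
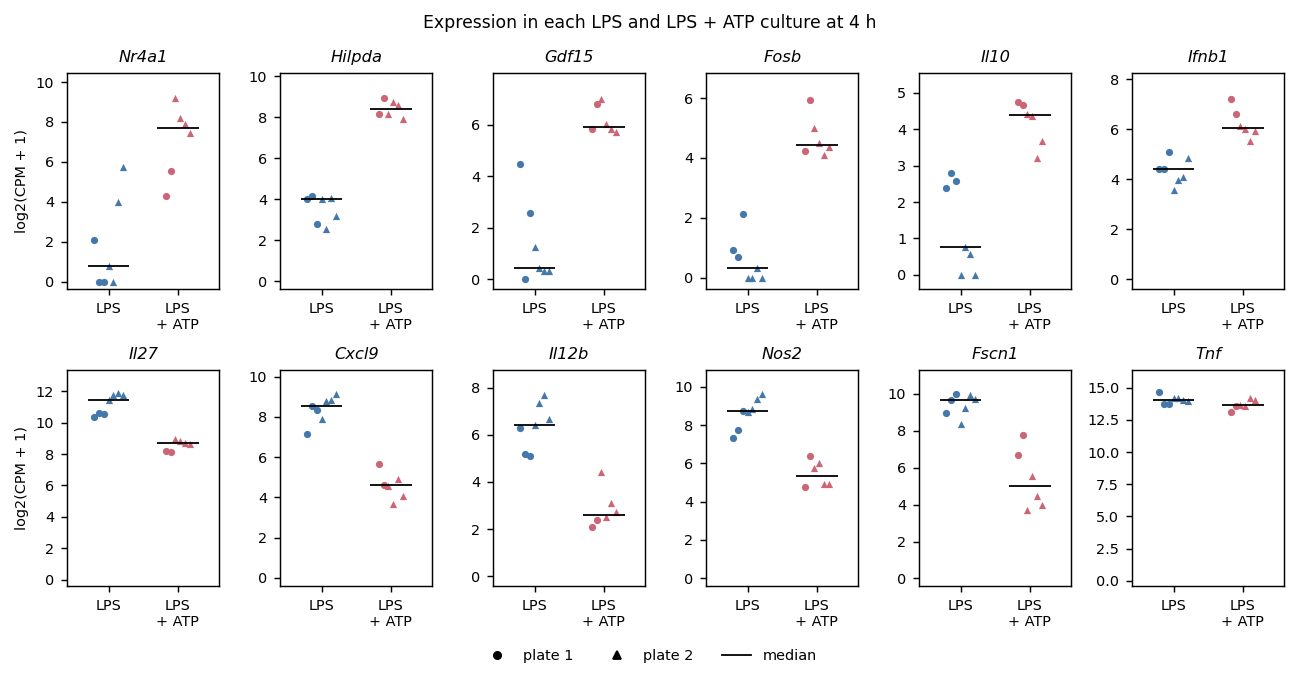
Log2(CPM + 1) of 12 genes in each of the 7 LPS cultures (blue) and 6 LPS + ATP cultures (red) at 4 h, with circles for plate 1, triangles for plate 2 and a bar at the median. The groups are apart for 10 of the genes and overlap for Nr4a1 and Tnf.

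Among 22 immediate early genes tested, 8 rose and 0 fell. This list holds the transcription factors that cells switch on within minutes of a signal, and its median log2 fold change was 0.85 beside 0.12 for all genes. The AP-1 members Fosb (log2 fold change 4.20, SE 0.46, adjusted p = 2.9e-05), Fosl2 (3.35, SE 0.51, adjusted p = 0.0007) and Fos (3.01, SE 0.70, adjusted p = 0.014) rose, while their partners Junb and Jund had log2 fold changes of 0.12 and 0.29 (adjusted p = 0.76 and 0.41). Fosb was at 16.1 to 60.4 CPM with ATP (median 20.7) and at 0 to 3.33 CPM without (median 0.247), with no overlap of the groups. Nr4a3, a relative of Nr4a1, was at 31.5 to 96.5 CPM with ATP (median 52.6) and 3.45 to 16.8 CPM without (median 11.2), with a log2 fold change of 2.30 (SE 0.35, adjusted p = 0.00071). Egr1 (2.45, adjusted p = 0.0053), Klf10 (2.58, adjusted p = 0.018) and Maff (1.33, adjusted p = 0.0048) completed the 8, and Egr2 was at -0.24 (adjusted p = 0.86). For Egr1, Fos and Klf10 the groups overlapped, and the call for Klf10 was lost with library pool in the fit of 4 LPS groups (adjusted p = 0.082) and with well position (adjusted p = 0.052).

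Of 23 tested genes known as targets of cyclic AMP and its factor CREB, 10 rose and 0 fell, with a median log2 fold change of 1.48, and of these Nr4a1, Nr4a3 and Fosl2 are also in the immediate early list. Crem, a repressor that CREB itself induces, rose by 1.55 on the log2 scale (SE 0.44, adjusted p = 0.041), and the clock gene Per1 by 2.45 (SE 0.65, adjusted p = 0.032). Both calls were lost in the fit of 4 LPS groups with library pool (adjusted p = 0.21 and 0.15), where 8 of 24 members rose, and with well position (adjusted p = 0.061 and 0.10). Gem, a GTPase that restrains calcium channels, rose by 2.45 (adjusted p = 0.016), and Odc1, the first enzyme of polyamine synthesis, by 1.74 (adjusted p = 0.0033). Sik1 and Pde4b, further cyclic AMP targets, had log2 fold changes of 0.39 and 0.51 (adjusted p = 0.60 and 0.11).

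Of the dual-specificity phosphatases and Sprouty proteins, which switch off MAP kinases, 4 of 13 rose and 1 fell. Dusp1 was at 65.7 to 128 CPM with ATP (median 85.6) and 0 to 34.2 CPM without (median 12), a log2 fold change of 3.17 (SE 0.62, adjusted p = 0.0049). Dusp5 rose from 8.91 to 64.1 CPM (median 35.4) to 121 to 210 CPM (median 141), a log2 fold change of 2.44 (SE 0.37, adjusted p = 0.0007). Every LPS + ATP culture lay above every LPS culture for both, and also for Dusp4 (2.92, adjusted p = 0.00059) and Dusp14 (3.51, adjusted p = 0.0055). Dusp2 was the member that fell, and its call was not made in the fit of 4 LPS groups with library pool (adjusted p = 0.20).

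Promoter sequences are printed for Nr4a1, Nr4a3 and Dusp1 of these groups and for Hilpda, which is in none of them. They show the letters that CREB and related factors are known to bind. They end at the base before the start site of the RefSeq transcript on GRCm38.p6, are read in the direction of the gene, and are 150 to 250 bases long. In Nr4a1 and Nr4a3 that start site lies inside the span of the gene. In Nr4a1, Nr4a3, Hilpda and Dusp1, which rose, capitals mark TGACG on either strand, the core of the cyclic AMP response element, and in Dusp1 a pair of overlapping matches forms the full element TGACGTCA.
Nr4a1, chr15:101266596-101266845, plus strand: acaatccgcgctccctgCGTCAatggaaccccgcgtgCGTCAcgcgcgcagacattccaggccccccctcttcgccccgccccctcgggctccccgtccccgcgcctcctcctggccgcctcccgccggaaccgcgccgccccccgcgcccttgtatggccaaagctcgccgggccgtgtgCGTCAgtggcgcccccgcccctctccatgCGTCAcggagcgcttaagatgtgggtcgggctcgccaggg
Nr4a3, chr4:48045055-48045304, plus strand: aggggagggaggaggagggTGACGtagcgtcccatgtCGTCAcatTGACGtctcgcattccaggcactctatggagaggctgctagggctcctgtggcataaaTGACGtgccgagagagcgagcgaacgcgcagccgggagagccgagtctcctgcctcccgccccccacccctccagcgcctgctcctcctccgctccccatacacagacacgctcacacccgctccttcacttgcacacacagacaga
Hilpda, chr6:29272338-29272487, plus strand: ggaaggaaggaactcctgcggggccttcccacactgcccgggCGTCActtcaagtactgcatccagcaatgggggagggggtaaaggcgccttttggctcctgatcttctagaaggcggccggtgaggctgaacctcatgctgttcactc
Dusp1, chr17:26508473-26508672, minus strand: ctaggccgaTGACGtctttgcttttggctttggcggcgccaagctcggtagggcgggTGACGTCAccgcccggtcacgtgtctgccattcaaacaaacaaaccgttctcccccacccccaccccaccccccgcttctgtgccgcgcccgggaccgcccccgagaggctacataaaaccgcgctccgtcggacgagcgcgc
The core was present 4 times in Nr4a1, 4 times in Nr4a3, 1 time in Hilpda and 3 times in Dusp1. In windows of 250 bases it was found in 25.7% of 237 promoters of genes that rose, in 18.3% of 202 promoters of genes that fell, in 29.1% of 6430 promoters of genes tested and in 17.9% of all 27025 promoters in the table. The full element TGACGTCA was in 3.38% of promoters of genes that rose and 2.97% of those tested. The promoters printed here were chosen after the matches of 7 motifs in all named genes had been seen (the full element and its core, and the AP-1, interferon, NF-kB, hypoxia and serum response elements), and a match describes letters and not a bound site. Fscn1, which fell, held the full element as well.

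Among 19 inflammatory cytokines tested, 8 fell and 4 rose, with a median log2 fold change of -0.53. Il27, a subunit of interleukin-27 that shapes T cell responses (chromosome 7, 126589009 to 126595035), was at 282 to 494 CPM with ATP (median 407) and 1305 to 3790 CPM without (median 2825). It had the smallest adjusted p of all genes tested (5.1e-09), with a log2 fold change of -2.72 (SE 0.14), which is 6.58-fold. Ebi3, the other subunit of the same cytokine, fell by 1.32 on the log2 scale (SE 0.27, adjusted p = 0.0069). Il12b, a subunit shared by the cytokines that drive Th1 and Th17 cells (chromosome 11, 44400063 to 44414677), was at 3.22 to 20.8 CPM with ATP (median 5.18) and 33.3 to 205 CPM without (median 83.6), a log2 fold change of -3.62 (SE 0.38, adjusted p = 2.3e-05). Il6 (log2 fold change -1.37, adjusted p = 0.038), Il18 (-1.86, adjusted p = 0.010) and Il15 (-0.76, adjusted p = 0.023) fell less. The call for Il6 was lost with well position in the fit (adjusted p = 0.056), and that for Il15 with library pool (adjusted p = 0.076).

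Tnf, the main early cytokine of the LPS response (chromosome 17, 35199367 to 35202007), did not pass the test. It was at 8939 to 18642 CPM with ATP (median 12877) and at 13384 to 25712 CPM without (median 16744), and 5 of 7 LPS cultures lay below the highest LPS + ATP culture. The log2 fold change was -0.39 (SE 0.17, 95% interval -0.74 to -0.04, adjusted p = 0.20), and with well position as a term it was -0.56 (adjusted p = 0.032).

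The 4 cytokines that rose were Il10, Lif, Ifnb1 and Il1rn. Il10, the main anti-inflammatory cytokine of myeloid cells (chromosome 1, 131019845 to 131024970), was at 8.21 to 26 CPM with ATP (median 20.0) and at 0 to 5.90 CPM without (median 0.689). All LPS + ATP cultures were above all LPS cultures, with a log2 fold change of 3.03 (SE 0.45, adjusted p = 0.00059). Il1rn, the antagonist of the interleukin-1 receptor (chromosome 2, 24336860 to 24351491), was at 418 to 693 CPM with ATP (median 613) and 74.5 to 279 CPM without (median 151), a log2 fold change of 1.80 (SE 0.22, adjusted p = 7.3e-05). Lif, a cytokine of the interleukin-6 family, rose by 2.79 on the log2 scale (SE 0.57, adjusted p = 0.0066) with an overlap of the groups. Its relative Osm had a log2 fold change of 2.34 that missed the threshold (adjusted p = 0.052) and passed it with library pool in the fit of 4 LPS groups (2.66, adjusted p = 0.045).

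Of 16 tested genes of the inflammasome and of interleukin-1 processing, 4 fell and 1, Il1rn, rose, with a median log2 fold change of -0.56. Il1b, the cytokine that the inflammasome releases (chromosome 2, 129364569 to 129371164), was at 454 to 844 CPM with ATP (median 733) and 881 to 1881 CPM without (median 1401), with no overlap and a log2 fold change of -0.96 (SE 0.22, adjusted p = 0.013). The difference was larger on plate 1 (-1.85) than on plate 2 (-0.42). Il1a fell by 0.86 on the log2 scale (SE 0.19, adjusted p = 0.0093), and Casp1, the protease that cleaves both Il18 and Il1b products, by 1.08 (SE 0.29, adjusted p = 0.033), a call not made with well position in the fit (adjusted p = 0.071). Nlrp3, the sensor itself, was at 420 to 564 CPM with ATP (median 458) and 539 to 1020 CPM without (median 639), a log2 fold change of -0.52 (SE 0.17, adjusted p = 0.078). With well position in the fit it passed the test at -0.62 (adjusted p = 0.048). The adaptor Pycard and the pore protein Gsdmd had log2 fold changes of -0.71 and -0.84 (adjusted p = 0.19 and 0.18).

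Of 19 chemokines tested, 10 fell and 0 rose, with a median log2 fold change of -0.93. Cx3cl1, the membrane-bound ligand of the microglial receptor Cx3cr1, was at 0 to 4.89 CPM with ATP (median 1.80) and 16.7 to 91.7 CPM without (median 30.9), with a log2 fold change of -4.10 (SE 0.48, adjusted p = 5.9e-05). Ccl9 was at 114 to 253 CPM with ATP (median 130) and 359 to 701 CPM without (median 592), a log2 fold change of -1.96 (SE 0.21, adjusted p = 2.8e-05). Besides Cxcl9, the other ligands of the receptor Cxcr3 also fell, Cxcl11 by 1.60 (adjusted p = 0.0017) and Cxcl10 by 0.85 on the log2 scale (adjusted p = 0.011). Ccl22, Ccl12, Cxcl3, Ccl5 and Ccl3 fell by 0.80 to 2.08 on the log2 scale, and the call for Ccl12 was lost with library pool (adjusted p = 0.21) and with well position (adjusted p = 0.11). The neutrophil attractants Cxcl1 and Cxcl2 had log2 fold changes of 0.09 and 0.11 (adjusted p = 0.89 and 0.80), Ccl4 was at -0.17 (adjusted p = 0.52), and Ccl2 at -1.06 (SE 0.41, adjusted p = 0.15), with a plate 1 difference of 0.03 and a plate 2 difference of -1.71.

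Ifnb1, the gene for interferon beta, rose while 13 genes of the response to it fell. Ifnb1 (chromosome 4, 88522025 to 88522794) was at 45.2 to 147 CPM with ATP (median 65.9) and at 10.9 to 33.3 CPM without (median 20.1). The groups did not overlap, and the log2 fold change was 1.96 (SE 0.29, adjusted p = 0.00055), or 3.90-fold. Ifnb1 was the member that rose among 40 tested genes of the type I interferon response, 13 of which fell, and the list's median log2 fold change was -0.39. The immunity-related GTPases Tgtp2 (log2 fold change -2.85, SE 0.67, adjusted p = 0.016) and Iigp1 (-2.09, SE 0.44, adjusted p = 0.0078) fell most, followed by Usp18, which dampens receptor signalling (-1.09, SE 0.19, adjusted p = 0.0028), and Zbp1, a sensor of nucleic acids (-1.08, SE 0.24, adjusted p = 0.013). Tgtp2 has a near-identical copy and Serpina3g belongs to a family of close relatives, so how reads were shared among the copies leaves their levels uncertain. The signal transducer Stat2 fell by 0.58 on the log2 scale (adjusted p = 0.047). With well position in the fit 8 members fell, and Stat2 was no longer among them (adjusted p = 0.067). Abundant members that did not pass the test were Ifit1, at 0.33 (adjusted p = 0.23), Rsad2, at -0.13 (adjusted p = 0.76), and Isg15, at -0.41 (adjusted p = 0.22).

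The interferon-stimulated response element is the site that interferon-activated factors bind, and it is shown in capitals, in the reverse strand's letters, for Cxcl10 and Tgtp2, which both fell.
Cxcl10, chr5:92348890-92349139, minus strand: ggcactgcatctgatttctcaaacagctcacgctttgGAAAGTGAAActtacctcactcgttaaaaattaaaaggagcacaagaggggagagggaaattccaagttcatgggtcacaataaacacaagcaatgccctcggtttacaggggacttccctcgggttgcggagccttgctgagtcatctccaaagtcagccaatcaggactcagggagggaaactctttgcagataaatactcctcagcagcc
Tgtp2, chr11:49064213-49064462, minus strand: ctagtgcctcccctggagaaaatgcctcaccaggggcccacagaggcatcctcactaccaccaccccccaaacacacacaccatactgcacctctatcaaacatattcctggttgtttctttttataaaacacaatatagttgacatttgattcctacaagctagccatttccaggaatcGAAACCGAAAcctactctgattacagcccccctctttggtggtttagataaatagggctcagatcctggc
Each of the 2 promoters held the element 1 time. Among windows of 250 bases, 7.92% of 202 promoters of genes that fell held it, 2.11% of 237 promoters of genes that rose, 2.94% of 6430 promoters of genes tested and 3.04% of all promoters in the table. The NF-kB consensus site was in 11.4% of promoters of genes that fell, 12.7% of those of genes that rose and 9.13% of those tested.

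**Figure D3:**
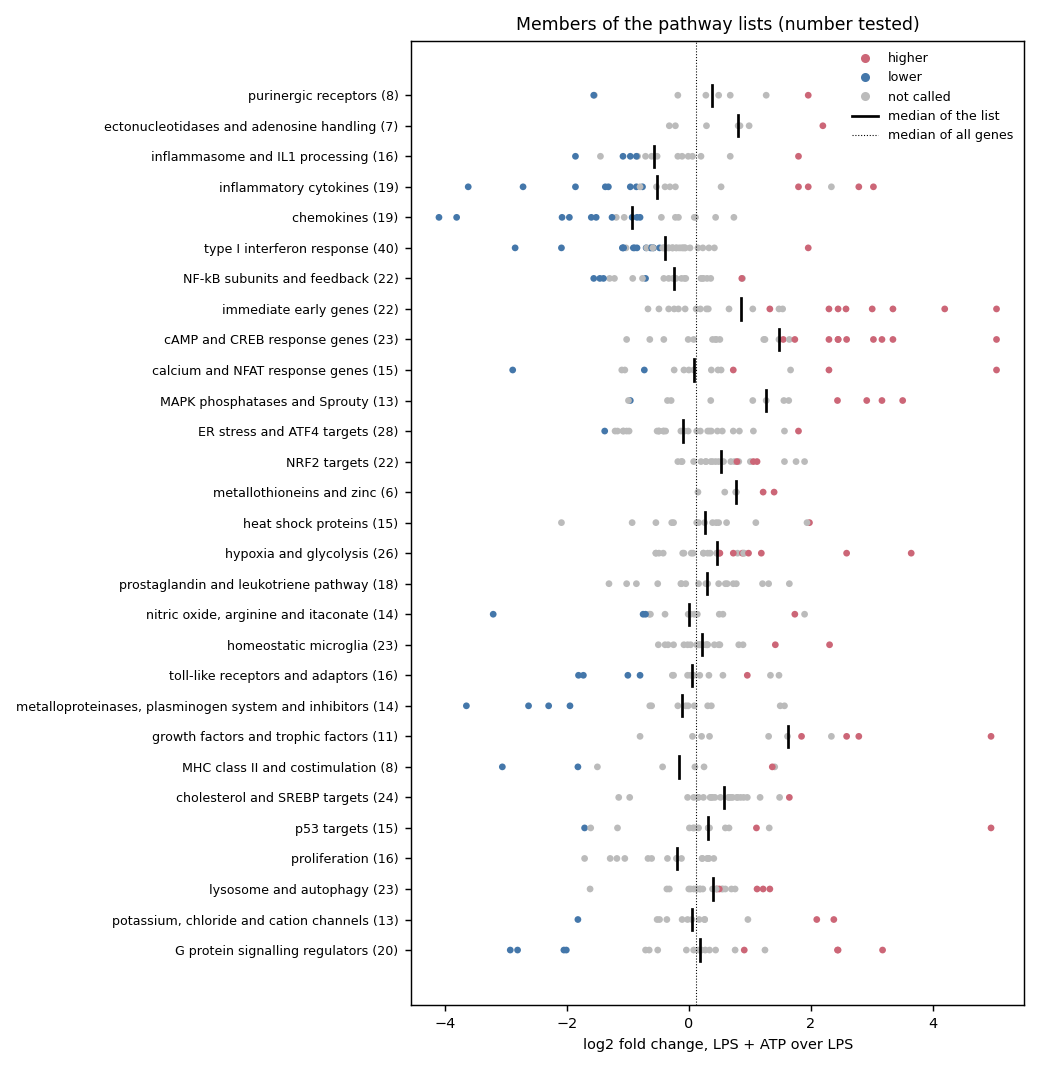
Log2 fold change of LPS + ATP over LPS for each tested member of 29 pathway lists (the number tested in brackets), with members that rose in red, members that fell in blue, others in grey, a black bar at the list's median and a dotted line at the median of all genes. The chemokine, cytokine, inflammasome and interferon lists have medians left of the dotted line, and the immediate early, cyclic AMP, growth factor and phosphatase lists have medians right of it.

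Of 20 purinergic receptors and related genes, 8 were tested, 1 rose and 1 fell. Adora2a, an adenosine receptor that raises cyclic AMP, was at 10.2 to 34.4 CPM with ATP (median 17.9) and 35.6 to 92.0 CPM without (median 48.1), with no overlap and a log2 fold change of -1.56 (SE 0.32, adjusted p = 0.0066). Another adenosine receptor, Adora2b, was at 23.5 to 47 CPM with ATP (median 36) and 0.247 to 41.8 CPM without (median 21.8). Its log2 fold change of 1.27 did not pass the test (SE 0.61, adjusted p = 0.27). P2ry2, a receptor for ATP and UTP, rose by 1.96 (SE 0.57, adjusted p = 0.047), a call that was lost with library pool in the fit of 4 LPS groups (adjusted p = 0.17) and with well position (adjusted p = 0.095). P2rx7, the channel that opens at high ATP, was at 15.6 to 47.3 CPM with ATP (median 29.9) and 2.81 to 94.2 CPM without (median 23.4), and P2rx4, the other main microglial channel, at 29.9 to 85.4 CPM (median 68.4) and 52.8 to 100 CPM (median 59.2). Their log2 fold changes of 0.68 and -0.18 did not pass the test (adjusted p = 0.65 and 0.75). P2ry12, the receptor by which resting microglia sense ADP, did not exceed 9.72 CPM in any of the 13 cultures and was not tested. Among the enzymes and carriers, Slc29a3, a nucleoside transporter of lysosomes, rose from a median of 19.2 to 68.0 CPM (log2 fold change 2.20, SE 0.45, adjusted p = 0.0067), and Entpd1, which degrades extracellular ATP, had a log2 fold change of 0.99 (SE 0.59, adjusted p = 0.39).

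Of 26 tested genes of hypoxia and glycolysis, 8 rose and 0 fell, with a median log2 fold change of 0.46. Ndrg1, a hypoxia-inducible protein, was at 50.4 to 75.3 CPM with ATP (median 62.5) and 0.474 to 15.3 CPM without (median 5.86), a log2 fold change of 3.65 (SE 0.48, adjusted p = 0.00018). The angiogenic factor Vegfa was low, at 3.95 to 12.6 CPM with ATP (median 7.77) and 0 to 4.14 CPM without (median 0), and rose by 2.59 on the log2 scale (SE 0.54, adjusted p = 0.0072). Hk2, the first enzyme of glycolysis, rose by 1.19 (adjusted p = 0.026) and Mif, a cytokine with hypoxia-inducible expression, by 0.98 (adjusted p = 0.0078), and the other 4 were the glycolytic enzymes Ldha, Pgam1, Aldoa and Pkm. With library pool in the fit of 4 LPS groups the calls for Pgam1, Aldoa and Pkm were lost (adjusted p = 0.066, 0.17 and 0.079). That for Aldoa was also lost with well position (adjusted p = 0.12). Growth factors showed 4 of 11 higher (Gdf15, Lif, Vegfa and Pdgfa) and 0 lower, with a median log2 fold change of 1.62.

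The genes of the iron-storing ferritin chains, Ftl1 and Fth1, rose. Ftl1 was at 18011 to 42544 CPM with ATP (median 32133) and 9337 to 21271 CPM without (median 13317). Its log2 fold change was 1.12 (SE 0.17, adjusted p = 0.00062), and that of Fth1 was 0.79 (SE 0.16, adjusted p = 0.0071). The call for Fth1 was lost with library pool in the fit of 4 LPS groups (0.57, adjusted p = 0.051). In the cultures given the chemokine CCL2 or CCL7 without LPS, described below, Ftl1 had medians of 30106 and 30830 CPM. The LPS + ATP cultures were thus near these, and the LPS cultures were low. Fth1 had medians of 6251 and 9317 CPM there, between those with LPS (5938) and with LPS + ATP (10383). The heme transporter Slc48a1 rose by 1.06 (SE 0.18, adjusted p = 0.0017), and these 3 were the members called among 22 tested targets of the antioxidant factor NRF2. Slc48a1 had medians of 1270 CPM with LPS + ATP, 524 CPM with LPS, 1277 CPM with CCL2 and 1335 CPM with CCL7. The zinc exporter Slc30a1 rose by 1.40 (SE 0.23, adjusted p = 0.0016) and the metallothionein Mt1 by 1.22 (SE 0.33, adjusted p = 0.035), although on plate 1 the Mt1 difference was -0.11 and its call was lost with well position in the fit (adjusted p = 0.11). Of 23 lysosome and autophagy genes 5 rose and 0 fell, among them the cholesterol transporter Npc1 (log2 fold change 1.33, adjusted p = 0.026) and Gpnmb (0.50, adjusted p = 0.029). The medians of Npc1 were 48.2 CPM with LPS + ATP, 14.5 CPM with LPS, 64.7 CPM with CCL2 and 70.6 CPM with CCL7. Those of Gpnmb were 6237, 4187, 6835 and 6107 CPM in the same order. With well position in the fit 2 of the 23 genes rose, and the calls for Npc1 and Gpnmb were lost (adjusted p = 0.071 and 0.074). That for Npc1 was also lost with library pool (adjusted p = 0.054).

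Genes for matrix proteases and their inhibitors fell in 4 of 14 and rose in 0, among them Adamts4 (log2 fold change -3.65, SE 0.35, adjusted p = 6.8e-06), Mmp13 (-2.63, SE 0.38, adjusted p = 0.00049) and Mmp14 (-1.95, SE 0.27, adjusted p = 0.00024). Of 22 NF-kB subunits and feedback genes, 5 fell and 1 rose, among them Traf1 (-1.46, adjusted p = 0.0017) and the survival factor Birc3 (-1.40, adjusted p = 0.0019). Costimulatory molecules split, with Icosl (-3.06, adjusted p = 0.00071) and Cd40 (-1.82, adjusted p = 4.4e-07) lower and Cd86 higher (1.37, adjusted p = 0.033). Toll-like receptors split likewise, with Tlr6, Tlr1, the adaptor Myd88 and Irak2 lower (Irak2 not with library pool, adjusted p = 0.098) and the LPS co-receptor Cd14 higher (0.96, SE 0.24, adjusted p = 0.025), the last with a difference of 0.12 on plate 1 and 1.46 on plate 2 and no call with well position in the fit (adjusted p = 0.068). The volume-regulated channel subunits Lrrc8d and Lrrc8c moved in opposite directions (2.10 and -1.82, adjusted p = 0.0048 and 0.0051). Cdkn1a, a cell cycle inhibitor induced by p53, was at 536 to 2392 CPM with ATP (median 1278) and 1305 to 5451 CPM without (median 5050), a log2 fold change of -1.71 (SE 0.19, adjusted p = 2.8e-05), while 2 other p53 targets, Gdf15 and Mdm2 (1.11, adjusted p = 0.0034), rose. Among 18 prostaglandin and leukotriene genes limma called 0 (5 at an unadjusted p under 0.05), including the cyclooxygenase Ptgs2 (-0.51, SE 0.21, adjusted p = 0.18), and among 16 proliferation genes 0 (1 at an unadjusted p under 0.05).

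The study built modules of co-varying genes on cultures of this series. Here 31 of them were counted in the same way, which is no independent evidence. Over all genes tested 3.82% rose and 3.07% fell, with a median log2 fold change of 0.12. The modules named below are examples. In module CY_red 14 of 29 genes tested fell and 0 rose (median log2 fold change -0.66), in CY_turquoise 17 of 38 fell and 0 rose (-0.68), in PI_blue 9 of 20 fell and 0 rose (-0.66), and in PU_turquoise 16 of 38 fell and 4 rose (-0.82). BR_turquoise had 29 of 146 genes lower and 2 higher (-0.39), and BR_blue 15 of 44 lower and 1 higher (-0.62). On the other side, TQ_yellow had 15 of 50 higher and 0 lower (1.02), TQ_turquoise 28 of 129 higher and 1 lower (0.56), and TQ_tan 7 of 21 higher and 0 lower (1.08). TQ_greenyellow had 9 of 24 higher (0.76) and YE_brown 10 of 42 higher (0.38), each with 0 lower. Other modules held few calls, such as YE_blue with 1 of 61 higher and 0 lower (0.18).

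ATP was also given without LPS, to 5 cultures. No untreated culture is labelled 4 h, so these were set against 14 cultures given the chemokine CCL2 (7) or CCL7 (7) at 0.0001 ug/ul, which are not untreated but share no culture with the LPS comparison. Of 10456 genes tested, 848 (8.11%) differed, 203 (1.94%) higher and 645 (6.17%) lower with ATP. Against the CCL7 cultures alone the count was 98, and without ATP replicate 4 it was 536. On plate 1 all 4 ATP cultures came from library pool 2 and all 7 chemokine cultures from pool 1. ATP and library pool therefore cannot be told apart there in this comparison. The cultures given nicotine (8) or norepinephrine (7) without LPS for 4 h were not part of it. Those on plate 1 also came from pool 2. With library pool in place of plate the contrast rests mostly on the 1 ATP culture and 2 CCL7 cultures that shared pool 3. The count was then 1488, 775 higher and 713 lower. Among genes tested in both comparisons, 50 of the 315 that rose when ATP was added to LPS were higher with ATP alone (15.9%, against 2.30% of the 8434 tested in both), which is 25.8% of the genes higher with ATP alone, and 12 were lower. In the other direction 26 of 239 (10.9%, against 6.25%) were lower in both, or 4.93% of the genes lower with ATP alone. With library pool in place of plate for ATP alone, 61 of the 315 were higher (19.4%, against 8.05%) and 42 of the 239 lower (17.6%, against 7.84%). The calls with LPS were those of the fit with plate in each case. In that fit 1 of the 2 LPS + ATP cultures on plate 1 also came from pool 2, and all LPS cultures there from pool 1. The part of library pool in the shared calls was not tested.

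Hilpda was at 241, 463, 195.3, 375.6 and 324.2 CPM in the 5 ATP cultures, against 10.3 to 37.2 CPM with CCL2 and 1.98 to 38.3 CPM with CCL7, a log2 fold change of 3.86 (adjusted p = 1.9e-05). Nr4a1 was at 46.22, 69.11, 59.46, 21.87 and 137.5 CPM with ATP alone (log2 fold change 3.20, adjusted p = 0.0037), and Fosb, Dusp1, Dusp5 and Fosl2 were higher as well, with log2 fold changes of 4.61, 2.81, 3.79 and 2.49. These 6 genes were also called with library pool in place of plate, at 5.18 for Hilpda (adjusted p = 0.0015) and 4.79 for Nr4a1 (adjusted p = 0.029). All 5 ATP cultures lay above every chemokine culture for Hilpda. Of 23 immediate early genes tested there, 9 were higher and 0 lower. Vegfa, at 55.75, 68.42, 65.62, 53.58 and 21.07 CPM with ATP alone, lay above every LPS + ATP culture in all 5, and the difference between its changes with and without LPS did not pass the test (-2.03, adjusted p = 0.063). Il10 and Ifnb1 were at most 2.47 and 0 CPM in the 5 ATP cultures and were too low without LPS to be fitted there.

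Whether the change with ATP differed between cultures with and without LPS was tested directly in a fit of 32 cultures. Of 11032 genes, 385 (3.49%) differed, 309 (2.80%) with a more positive change when LPS was present and 76 (0.689%) with a more negative one, and the count was 168 with no plate term, 103 with the CCL7 cultures alone and 75 with library pool in place of plate (45 and 30), of which 51 were among the 385. Of the 385 genes, 33 were too low without LPS for a fit of ATP alone and entered through the LPS cultures. Their difference has no fitted change without LPS beside it, and no separate result is drawn from it. For Hilpda and Nr4a1 the difference did not pass (0.99, adjusted p = 0.33, and 1.75, adjusted p = 0.35). Arl4c showed a large one (3.64, adjusted p = 2.0e-07, and 3.20, adjusted p = 0.0012, with library pool). It was at a median of 876 CPM with ATP alone and at 1138 and 912 CPM with CCL2 and CCL7. The LPS + ATP cultures (median 966) were thus near these cultures without LPS, and the LPS cultures (median 83.0) were low. The medians of Bhlhe40 were 25.4 CPM with LPS + ATP, 4 CPM with LPS, 26.1 CPM with CCL2 and 25.2 CPM with CCL7. Those of Cxcr4 were 19.7, 1.66, 108 and 108 CPM in the same order. Nr4a3 had a smaller change with LPS than without (-2.57, adjusted p = 0.015), and without LPS it went from medians of 0.17 and 0 CPM with the chemokines to 46.5 CPM. With library pool its difference did not pass (adjusted p = 0.15). Il27, Cxcl9, Nos2 and Il12b, which fell with LPS, had medians of at most 21.1 CPM in each of the ATP, CCL2 and CCL7 groups. No separate result is drawn from their differences.

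**Figure D4:**
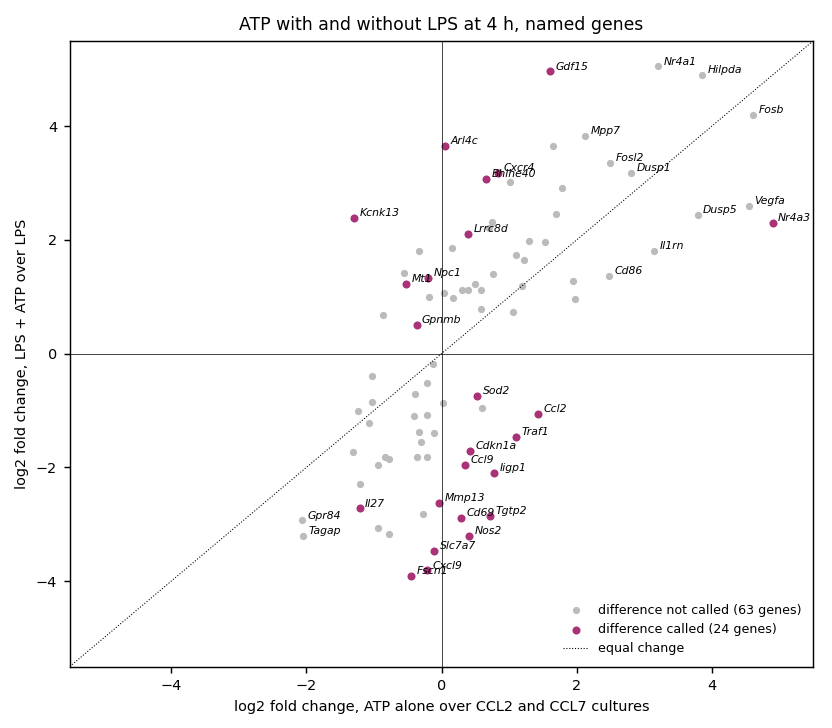
Log2 fold change of LPS + ATP over LPS (y axis) against that of ATP alone over CCL2 and CCL7 cultures (x axis) for the 87 named genes fitted in both, with the 24 genes whose difference was called in purple and a dotted line at equal change. Hilpda and Fosb lie near the line at upper right, and Arl4c lies above 0 on the y axis at an x value near 0. Cxcl9, Fscn1 and Slc7a7 lie at the bottom near an x value of 0. Of these, Cxcl9 and Slc7a7 were low without LPS, with medians of at most 18.3 CPM in the ATP, CCL2 and CCL7 groups.

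Nicotine (8 cultures) and norepinephrine (8 cultures) were also combined with LPS for 4 h and set against the same 7 LPS cultures, so the values of the 3 additions share their controls and are given side by side without a test between them. The nicotine cultures all sat in edge wells. On plate 2 they all came from library pool 4 and the LPS cultures all from pool 3, so nicotine and library pool cannot be told apart there. The values given for nicotine and norepinephrine are from fits with plate and without library pool. Of 9078 genes tested 219 (2.41%) were called with nicotine, 1.63% higher and 0.782% lower, and of 9113 genes 245 (2.69%) with norepinephrine, 1.25% higher and 1.44% lower. For Hilpda the log2 fold changes were 4.90 with ATP, 2.68 with norepinephrine (adjusted p = 0.00064) and 0.23 with nicotine (adjusted p = 0.79). Of the 12 largest rises with ATP, Dusp1 was also higher with nicotine (47.9 to 167 CPM, log2 fold change 3.16, adjusted p = 0.005). Mpp7 (2.38, adjusted p = 0.016) and Fosl2 (1.64, adjusted p = 0.037) were higher with nicotine too. The others of the 12 that were fitted with nicotine were not called. With norepinephrine Nr4a1 (3.03, adjusted p = 0.046), Ndrg1 (3.10, adjusted p = 0.00067) and Fosl2 (3.43, adjusted p = 0.0004) were higher besides Hilpda. The others of the 12 that were fitted with norepinephrine were not called. Il10 was at 5.84 to 63.5 CPM with norepinephrine (median 12.3), a log2 fold change of 2.63 (adjusted p = 0.014), and at 0 to 10.4 CPM with nicotine (median 1.38). For Il1rn the values were 1.80 with ATP, 1.78 with norepinephrine (adjusted p = 3.2e-05) and -1.34 with nicotine (adjusted p = 0.0047). Fth1, Slc48a1 and Mt1 were higher with nicotine (0.67, 0.98 and 1.56, adjusted p = 0.027, 0.02 and 0.005). They were also higher with norepinephrine (0.87, 1.21 and 1.48, adjusted p = 0.019, 0.018 and 0.0039). Ftl1 was higher with norepinephrine (0.89, adjusted p = 0.038), and with nicotine it did not pass (0.66, adjusted p = 0.069). Il27 was lower with all 3, at -2.72 with ATP, -2.89 with norepinephrine (adjusted p = 1.2e-05) and -1.36 with nicotine (adjusted p = 0.001). Of the 12 largest falls with ATP, Vgf, Cxcl9, Adamts4, Il12b and Serpina3g were also lower with both nicotine and norepinephrine. For Cxcl9 the log2 fold changes were -1.41 with nicotine (adjusted p = 0.039) and -3.12 with norepinephrine (adjusted p = 0.0012). Cx3cl1 and Nos2 were lower with nicotine only, and Fscn1 and Edn1 with norepinephrine only. Slc7a7, Tagap and Il20rb were called with neither. Ifnb1, in contrast, was lower with norepinephrine (0.329 to 5.15 CPM, log2 fold change -2.78, adjusted p = 0.00029), and so was Tnf (1834 to 6771 CPM, -2.25, adjusted p = 5.2e-07), while Ptgs2 was lowest with nicotine (17.5 to 42.3 CPM, -2.57, adjusted p = 2.4e-06).

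**Figure D5:**
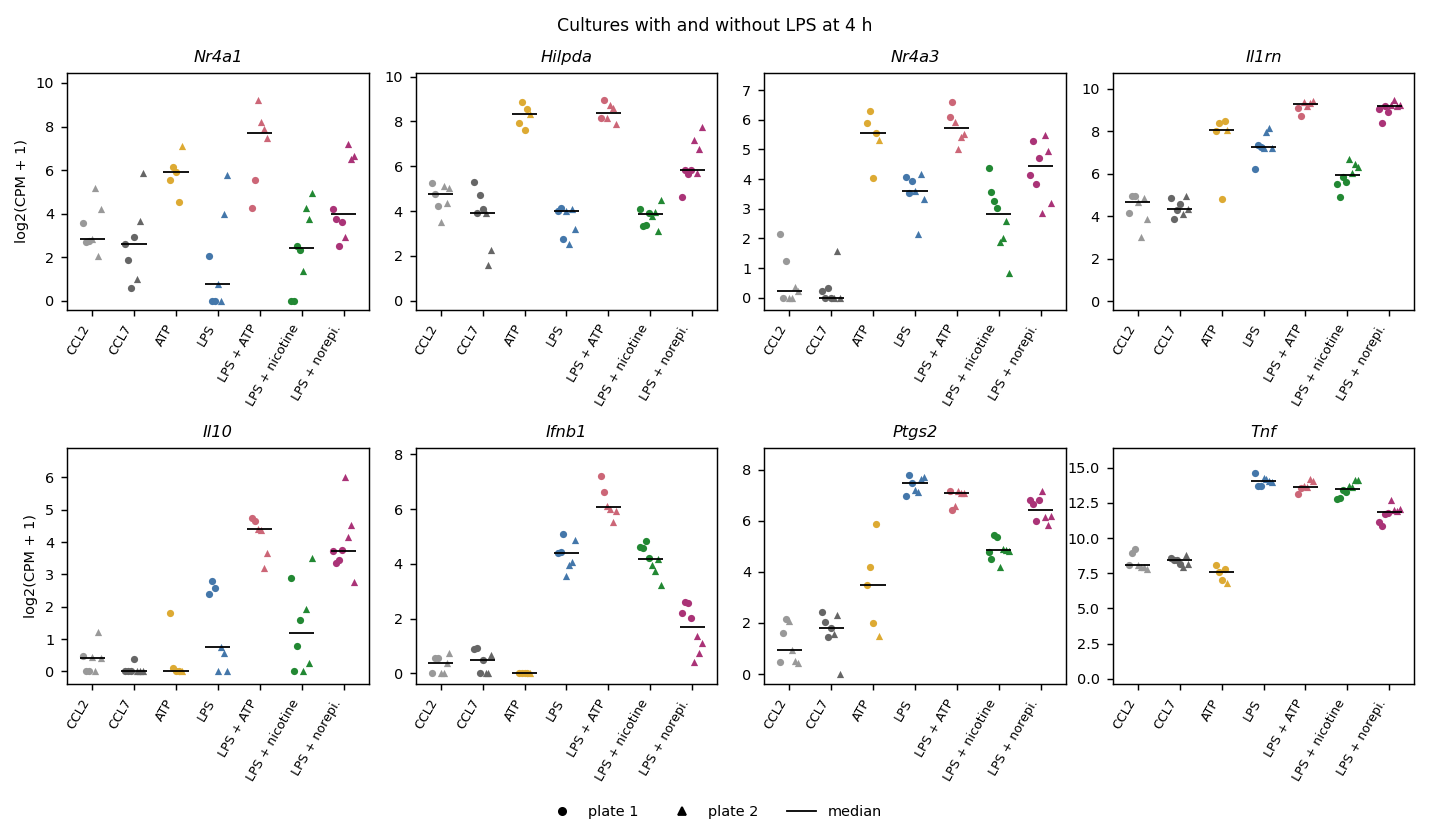
Log2(CPM + 1) of 8 genes in every culture of 7 groups at 4 h, with circles for plate 1, triangles for plate 2 and a bar at the median. Hilpda is high in both groups with ATP, Il10 is low in every group without LPS, and Ifnb1 is high in the LPS + ATP cultures and low in the LPS + norepinephrine cultures.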

How the data were processed

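Primary mouse microglia cultures were profiled by RNA sequencing of barcoded and pooled samples amplified with T7 polymerase and prepared with a 3' kit. The deposited values are CPM: the authors quantified transcripts with Salmon 0.7.1 against mouse gene models, added up the transcripts of each gene and scaled to a culture's total of mapped reads, and removed cultures with few reads or genes. The submitters' processing notes name the build mm8, while the gene symbols were matched here to RefSeq tables on GRCm38.p6, so that positions are those of RefSeq and not of the authors' files. Of the columns of cultures, 672 were not used. Whole reads could not be recovered from the CPM (73.4 to 84.6% of low values in the 13 cultures were whole within 0.1 reads), so no count model was run, and with depths of 1.191 to 17.246 M reads a gene of a few CPM rests on few reads in the shallow cultures.

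Log2(CPM + 1) was fitted with limma 3.58.1 (R 4.3.3) with a mean-variance trend and culture plate as a term, for genes above 5 CPM in at least 4 cultures of the fit. P-values were two-sided and adjusted by Benjamini-Hochberg over all genes of the fit, with calls at 0.05. Scripts were tested on simulated data. There the fit of the difference with and without LPS missed many of the genes given a change, and the pass mark was lowered after this was seen. A difference that did not pass is therefore no evidence of equal change. Groups were taken from the labelled treatment and time. Named genes were the 12 largest rises and the 12 largest falls among called genes with at least 10 CPM in the higher group and the same sign on both plates (predicted genes and clone names left out), a set of cytokine, receptor and early genes, and up to 4 called genes of largest change per list; other list members were named for the counts they belong to. The comparison, the lists and the named genes were chosen with earlier results of these data known. Alternatives changed the plate term, pseudocount, filter, scaling, variance estimate, test and cultures; the fits of ATP alone and of the difference with library pool, and those with well position, with library pool in 4 groups, within a plate and without shallow cultures were added after seeing the data. Motifs were searched on both strands with Python 3.11.15. Some genes counted in the lists are not reported here by name.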

Additional observations from a re-analysis of the deposited data

Results flagged for a closer look

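In 17 of 206 group-and-gene checks a single culture stood apart from its group, where chance alone gives about 1 in 20; the value given is the gap to the nearest culture as a share of the group's range. The lowest LPS + ATP culture stood apart for Tagap (0.665), Cxcl10 (0.686), Il18 (0.792), Gabarapl1 (0.794), Gpnmb (0.82) and Gpr84 (0.729), each time replicate 1, and for Entpd1 (0.738), Abca1 (0.666) and Atp6v1h (0.629), each time replicate 3. The highest LPS + ATP culture stood apart for Slc7a7 (0.645). Among LPS cultures the highest stood apart for Fosb (0.572), Birc3 (0.613) and Vegfa (0.748), and the lowest for Il20rb (0.568), Adora2b (0.624), Nr4a3 (0.585) and Rgs16 (0.576).

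For 34 named genes the change with ATP differed between cultures with and without LPS (limma, adjusted p under 0.05); the values are the change with LPS minus the change without, on the log2 scale. For 10 of them (Dusp14, Il10, Ifnb1, Lif, Vgf, Cx3cl1, Il12b, Adamts4, Serpina3g and Ptgs2) levels without LPS were too low for a fit of ATP alone. Except for Ptgs2, the value largely restates the change with LPS and does not show that ATP acted differently without it. The change of Ptgs2 with LPS was -0.51 and did not pass the test (adjusted p = 0.18). Without LPS its medians were 10.2 CPM with ATP, 0.898 CPM with CCL2 and 2.47 CPM with CCL7, so its difference also rests on these low levels. Cxcl9, Mmp13, Tgtp2, Iigp1 and Cd69 were fitted but had medians of at most 7.98 CPM without LPS. With library pool in place of plate the call was kept for 8 of the 34 (Arl4c, Cxcr4, Cx3cl1, Slc7a7, Ifnb1, Ccl9, Cd69 and Cdkn1a). It was positive for Gdf15 (3.33), Arl4c (3.64), Dusp14 (3.49), Cxcr4 (2.34), Bhlhe40 (2.45), Il10 (2.97), Ifnb1 (2.43), Lif (2.57), Mt1 (1.71), Npc1 (1.57), Gpnmb (0.88), Kcnk13 (3.71) and Lrrc8d (1.78). Among secreted factors and proteases it was negative for Vgf (-4.28), Cx3cl1 (-5.57), Cxcl9 (-3.69), Ccl9 (-2.35), Ccl2 (-2.58), Il12b (-3.00), Il27 (-1.65), Adamts4 (-3.03), Mmp13 (-2.65) and Serpina3g (-2.99). Among other genes it was negative for Fscn1 (-3.59), Slc7a7 (-3.39), Nos2 (-3.81), Ptgs2 (-2.30), Nr4a3 (-2.57), Tgtp2 (-3.64), Iigp1 (-2.88), Traf1 (-2.68), Cd69 (-3.28), Sod2 (-1.32) and Cdkn1a (-2.15).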

How the results depend on the processing

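The count of 597 genes changed by adding ATP to LPS became 271 with no plate term, 241 with library pool in place of plate, 303 with no filter, 306 with library pool and well position in a fit of 4 LPS groups, 119 on plate 1 alone and 307 on plate 2 alone. An exact rank-sum test called 0 genes (1067 at an unadjusted p under 0.05, smallest p possible 0.00117). Leaving out each culture gave 377 to 590, with 386 without LPS + ATP replicate 5 and 377 without replicate 6. With median-of-ratios scaling 47.8% of the calls were higher, against 55.4%. The count for ATP alone became 98 with the CCL7 cultures only, and 536 to 983 when each ATP culture was left out, the lowest without replicate 4, and 1488 with library pool in place of plate. The count for the difference became 168 with no plate term, 103 with the CCL7 cultures only and 75 with library pool in place of plate. The cause of these shifts was not tested. Of 94 named genes called, 32 kept the call under each alternative that fitted them, other than the rank-sum test. Signs turned for P2rx4 on plate 2 alone (0.06), Ccl2 on plate 1 alone (0.03) and Mt1 on plate 1 alone (-0.11). No paired analysis was possible because the labels give no replicate numbers. Low depth limits genes near 5 CPM, and plate, pool and well position are unevenly spread over the groups.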
